A study of Sus scrofa domesticus with 9 samples.

Results

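Motile cilium genes were taken from the lung expression table by their names: FOXJ1, every gene whose name starts with CFAP, RSPH, TEKT, DNAAF or SPAG, and every gene whose name is DNAH, DNAI or IFT followed by a digit. This rule found 103 of the 35670 genes of the table, and 62 of them had a mean normalized count over 20 and were tested. The lungs came from 9 pigs labelled female, 5 fed an increased dose of cholecalciferol (replicates 3, 19, 27, 51 and 59) and 4 fed the standard dose (replicates 9, 17, 33 and 41), with 1 library per animal. The increased-dose feed held 3000 IU of cholecalciferol per kg for growing and 2500 for finishing pigs, and the standard-dose feed 2000 and 1500 IU per kg, over 88 days. The feed was the same in other respects, and the tissue was the middle of the upper lobe of the left lung. All levels are normalized counts, meaning the number of reads of a gene over the size factor that DESeq2 gave the library. Because the QuantSeq kit sequences the 3′ end, a count does not grow with the length of the transcript.

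Motile cilia are the beating hairs on multiciliated cells that carry mucus up the airways. Their shaft, the axoneme, holds a ring of doublet microtubules around a central pair, and dynein motor arms on the doublets drive the beat under the control of radial spokes. The arms are put together in the cytoplasm by assembly factors and, like other parts, are carried along the growing cilium by intraflagellar transport (IFT), which nearly all cells use for their non-motile primary cilium too. FOXJ1 is the transcription factor that switches on the motile programme, and it acts with RFX factors, which bind a palindromic promoter element called the X-box. Several members work mainly outside cilia or in sperm, so the names alone do not make every member a gene of airway cilia.

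Promoters were read from 250 bases before to 50 bases after the RefSeq gene start on Sscrofa11.1, for the 77 members that matched RefSeq by symbol, strand and position. The X-box was searched as the arms GTNNCC and GGNNAC around 2 bases of any kind, which reads the same on both strands, and was found in 7 of the 77 promoters (9.09%) and in 333 of 19534 promoters of all protein-coding genes on chromosomes (1.70%). FOXJ1 itself carried a match that begins 120 bases before its gene start. The shorter motif GTTGCC, the left arm of many X-boxes, was found on either strand in 23 of the 77 (29.9%) and in 13.1% of all promoters, and it can lie inside an X-box match. The forkhead motif GTAAACA was found on either strand in 2 of the 77 (2.60%) and in 2.65% of all promoters, and at 7 letters it is a coarse description of a FOXJ1 site. The X-box matches are shown as a feature of the members that the rule by name did not use. Each line gives the match in capitals with its flanks, 5′ to 3′ along the gene.
FOXJ1, chr12:5307242-5307271, plus strand: agcccgcgGTTTCCTTGGAGACacgctgac
CFAP45, chr4:90593828-90593857, plus strand: ggctcctgGTTACCATGGTAACgcgtcaac
DNAH2, chr12:52982196-52982225, plus strand: ccgcttcgGTTGCCATGGTGACgcgtgcag
RSPH1, chr13:205827090-205827119, minus strand: ctgaccgcGTCTCCATGGCGACggcggacg
SPAG17, chr4:102596344-102596373, plus strand: ggcgcgcaGTTGCCTTGGCAACggaagccg
The matches of CFAP45, DNAH2 and RSPH1 begin 28, 13 and 13 bases before the RefSeq gene start, and that of SPAG17 begins 113 bases before it. The annotations differ in where SPAG17, RSPH1 and DNAH2 start. The counted SPAG17 gene runs from 102427186 to 102826226, so its match lies inside that gene. The counted RSPH1 gene, on the minus strand, runs from 205808671 to 205827213, so its match lies inside that gene too. The counted DNAH2 gene starts at 52992843, downstream of its match. The other 2 matches were in IFT22 and IFT43, and a match of letters is a description and not a binding site.

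Reads in genes came to 4427608 to 5919294 per increased-dose library and 4253502 to 5411543 per standard-dose library, and 1 read was worth 0.853 to 1.49 normalized counts. Standard dose replicates 9 and 41 stood apart: 29.1% of all 12446 genes tested had their highest value in replicate 9 and 15.6% in replicate 41, against 4.91% to 13.1% in each of the other 7 libraries. Replicate 9 held 369315 summed normalized counts of 11 hepatocyte markers and 4141 of 8 type 2 pneumocyte markers, while the other 8 libraries held 28746 to 103557 and 16086 to 29437. The labels name no sequencing batch.

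No motile cilium gene passed the dose comparison, while most had lower mean levels at the increased dose. By limma on log2(normalized count + 1), 0 of the 62 members and 0 of the 12446 genes tested were called at 0.05 after adjustment over the whole table, a background of 0%. The smallest adjusted p of a member was 0.397. Without adjustment 4 members had a p under 0.05, 2 lower and 2 higher at the increased dose, where 12.2% of all genes tested had such a p. edgeR's quasi-likelihood test and DESeq2 on the recovered whole reads also called 0 members, with 7 and 11 at an unadjusted p under 0.05, against 15.0% and 14.0% of all genes. DESeq2 called 1.61% of all genes after adjustment, edgeR 0%, and limma with weights for each library 0.0161%. The log2 fold change, increased minus standard dose, was negative for 51 members and positive for 11, with a median of −0.47. Over all genes tested it was negative for 49.2%, with a median of 0.01. The groups did not overlap for 1 member, where 3.81% of all genes tested had no overlap. In such bulk samples, fewer ciliated cells and less RNA per cell cannot be told apart.

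**Figure D1:**
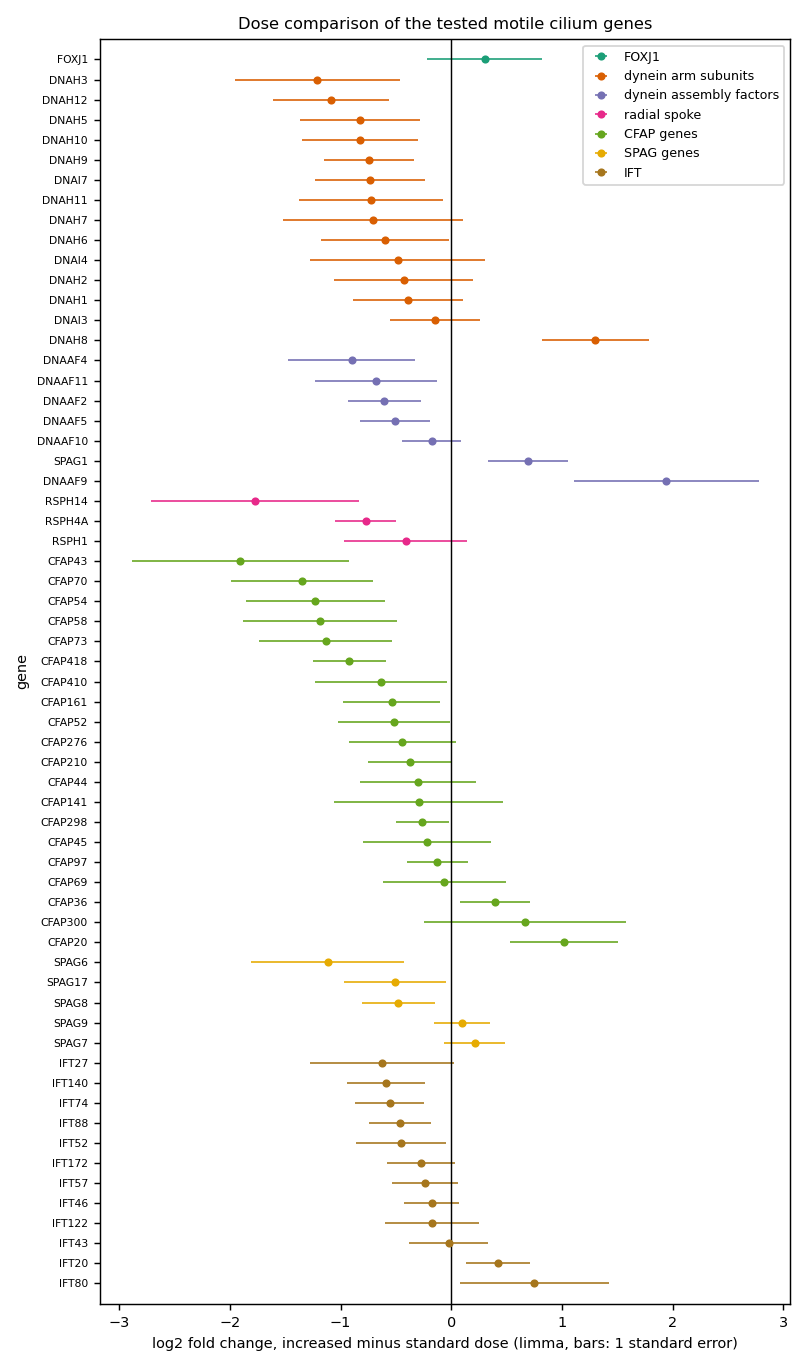
Log2 fold change of the 62 tested motile cilium genes, increased minus standard dose, with bars of 1 standard error from limma on log2(normalized count + 1). Points run from −1.91 for CFAP43 to 1.94 for DNAAF9, 51 lie left of 0, and none passed an adjusted p of 0.05.

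FOXJ1 did not share the direction of most members. It is gene ENSSSCG00000017187, on chromosome 12 from 5307374 to 5312106 of Sscrofa11.1. Its normalized counts were 29.8, 17.1, 54.9, 98.9 and 41.4 in increased dose replicates 3, 19, 27, 51 and 59, against 17.9, 39.3, 27.0 and 62.7 in standard dose replicates 9, 17, 33 and 41. The highest library was an increased-dose one, both groups spanned most of the range, and they overlapped fully. The means were 48.4 ± 31.5 (SD, n = 5) at the increased dose and 36.7 ± 19.4 (SD, n = 4) at the standard dose. The log2 fold change of FOXJ1 was 0.30 (standard error 0.52, adjusted p = 0.813 by limma, exact permutation p = 0.595), and it was −0.010 without increased dose replicate 51 and 0.018 without standard dose replicate 9.

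Dynein arm genes, the motors of the beat, lay below 0 with 1 exception. Of 18 members 14 were tested, and the log2 fold change of 13 was negative, with the median at −0.71. The inner arm heavy chain DNAH12 had 38.0, 60.6, 17.4, 103 and 53.0 normalized counts in increased dose replicates 3, 19, 27, 51 and 59, against 47.7, 120, 74.8 and 235 in standard dose replicates 9, 17, 33 and 41. Standard dose replicates 17 and 41 were the highest of all libraries, and replicate 9 lay within the increased-dose range. Its log2 fold change was −1.09 (standard error 0.52, adjusted p = 0.418 by limma), and −0.68 without standard dose replicate 41. DNAH9, an outer arm heavy chain of airway cilia, averaged 51.0 ± 21.7 (SD, n = 5) at the increased dose and 88 ± 39.9 (SD, n = 4) at the standard dose, with a log2 fold change of −0.74. DNAI3, an inner arm intermediate chain, had the highest mean of these genes, with 141.6 ± 31.7 (SD, n = 5) against 182.4 ± 105.4 (SD, n = 4) and a log2 fold change of −0.15, which was 0.17 without standard dose replicate 41 and 0.049 without 17. The outer arm heavy chains DNAH5 and DNAH11, whose loss causes primary ciliary dyskinesia in humans, had log2 fold changes of −0.83 and −0.72.

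DNAH8 was the one tested dynein arm gene with a positive log2 fold change. It encodes an outer arm heavy chain known mainly from the sperm flagellum. Its counts were 68.7, 60.6, 27.0, 128.8 and 71.3 in increased dose replicates 3, 19, 27, 51 and 59, against 11.9, 27.4, 47.0 and 25.7 in standard dose replicates 9, 17, 33 and 41. Of the increased-dose libraries 4 lay above all of the standard-dose group, and replicate 27 overlapped it. The log2 fold change was 1.30 (standard error 0.48, unadjusted p = 0.018 and adjusted p = 0.397 by limma, exact permutation p = 0.0556). Markers of spermatids were at or near 0, with 5 of 10 (ACRV1, PRM1, PRM2, SPACA4 and TNP1) at 0 in every library. The summed count of the 10 was 1.81 to 13.4 in the increased-dose and 0 to 5.97 in the standard-dose libraries. Low counts were fixed in advance in lungs labelled female, so they cannot show the source of the DNAH8 reads, which was not tested. The intermediate chain gene DNAI1, a core part of the outer arm, was one of the 4 dynein arm genes below the minimum and had 0 to 2.56 normalized counts in the 9 libraries.

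Assembly factors of the arms were divided. Of 11 members 7 were tested, 5 below and 2 above 0, and their median log2 fold change was −0.50. DNAAF9, related to a protein of the ciliate Tetrahymena that holds dynein arms inactive during transport, had 20.8, 40.1, 25.2, 35.0 and 47.2 normalized counts in increased dose replicates 3, 19, 27, 51 and 59, against 16.4, 21.9, 13.0 and 0 in standard dose replicates 9, 17, 33 and 41. The groups overlapped only between increased dose replicate 3 and standard dose replicate 17. Its log2 fold change was 1.94 (standard error 0.84, unadjusted p = 0.037 and adjusted p = 0.401 by limma, exact permutation p = 0.0159), and it was 0.91 without standard dose replicate 41, where no read was counted. A count of 0 allows up to 3 reads there, or 3.36 normalized counts, by counting error only. SPAG1, which is needed for arm assembly too, averaged 93.3 ± 16.4 (SD, n = 5) at the increased dose and 63.3 ± 32.7 (SD, n = 4) at the standard dose, a log2 fold change of 0.69, which was 0.40 without standard dose replicate 41 and 0.0098 without replicates 9 and 41. DNAAF10, the most counted, had 126.4 ± 36.3 against 139.6 ± 22.2, and DNAAF2, a co-chaperone of the arm heavy chains, had 49.7 ± 20.3 against 73.4 ± 15.5 (SD, n = 5 and n = 4 for both genes).

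All 3 tested radial spoke genes had negative log2 fold changes. RSPH4A, a protein of the spoke head, is on chromosome 1 from 44963886 to 44985202 (ENSSSCG00000023834). Its normalized counts were 66.9, 79.3, 59.2, 94.8 and 79.9 in increased dose replicates 3, 19, 27, 51 and 59, against 114.9, 170.0, 87.9 and 160.1 in standard dose replicates 9, 17, 33 and 41. The groups overlapped only because increased dose replicate 51 lay above standard dose replicate 33. The log2 fold change of RSPH4A was −0.77 (standard error 0.28, unadjusted p = 0.015 and adjusted p = 0.397 by limma, exact permutation p = 0.0159), and it lay between −0.95 and −0.64 when each library was left out in turn. RSPH1, another protein of the spoke head and the most counted, had 38.0, 210.7, 53.1, 103 and 136.7 in increased dose replicates 3, 19, 27, 51 and 59, against 46.2, 267.9, 96.6 and 175.7 in standard dose replicates 9, 17, 33 and 41, with wide overlap, and its log2 fold change of −0.41 ran from −0.87 to −0.030 when each library was left out in turn. RSPH14 averaged 12.4 ± 13.6 (SD, n = 5) at the increased dose and 31 ± 19.6 (SD, n = 4) at the standard dose, and at a mean of 20.7 it was the member nearest above the minimum. The spoke head gene RSPH9 was among the 3 not tested and had a read in only 2 libraries.

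**Figure D2:**
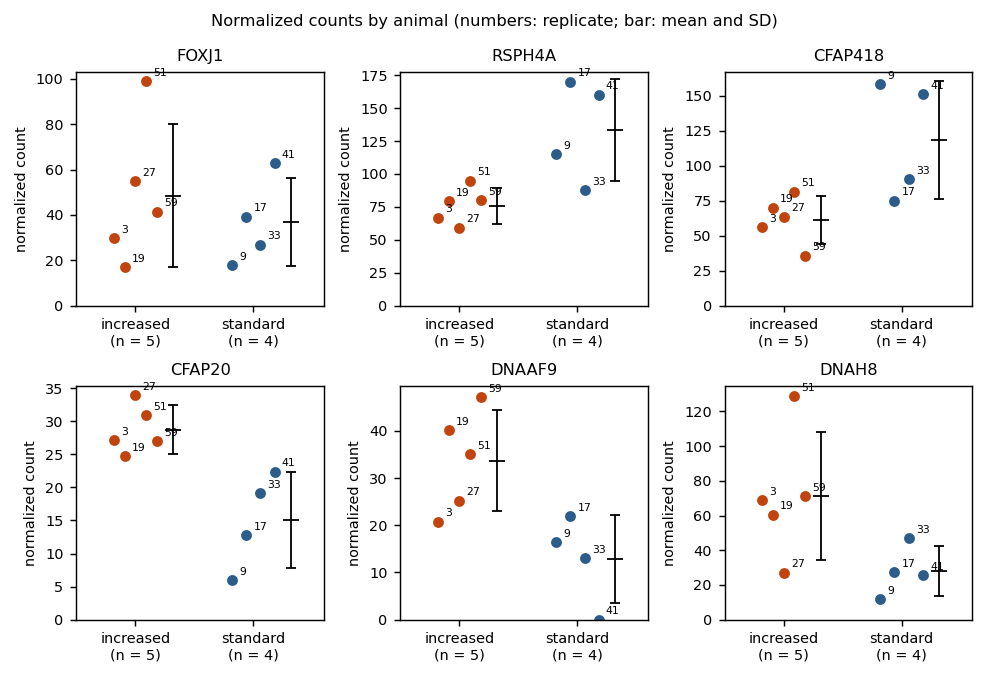
Normalized counts of 6 motile cilium genes by animal, increased dose left of standard dose, with numbers for replicates and a bar for the mean and SD. CFAP20 is the one gene without overlap, with 24.7 to 34.0 at the increased dose and 5.97 to 22.4 at the standard dose, while FOXJ1 overlaps fully.

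The CFAP genes, for cilia and flagella associated proteins, are the largest role, with 40 members of varied place in the axoneme. Of these 20 were tested, and log2 fold changes were negative for 17 and positive for 3 around a median of −0.41. CFAP54, a protein of the central pair apparatus, had 23.5, 82.7, 19.2, 98.9 and 48.1 normalized counts in increased dose replicates 3, 19, 27, 51 and 59, against 43.3, 147.2, 58.3 and 341.4 in standard dose replicates 9, 17, 33 and 41. Standard dose replicates 17 and 41 lay above every increased-dose library, and replicates 9 and 33 within their range. Its log2 fold change of −1.23 (standard error 0.63) was −0.67 without standard dose replicate 41. CFAP70, another axonemal protein, had 18.7 ± 9.40 (SD, n = 5) against 63.9 ± 63.5 (SD, n = 4) and a log2 fold change of −1.35, which was −0.75 without replicate 41. CFAP43, part of the tether of an inner arm, had 12.3 ± 11.7 against 31.7 ± 18.9 and the most negative log2 fold change, −1.91 (standard error 0.98, adjusted p = 0.428 by limma). With few reads such a value rests on the added 1, and CFAP43 had no read in increased dose replicate 19. Its fold change on the log2 scale was −1.18 without that library and −1.26 with 5 added in place of 1. The most counted, CFAP298, which takes part in arm assembly, and CFAP210, a protein inside the doublets, had log2 fold changes of −0.26 and −0.38. With each library left out in turn, that of CFAP298 ran from −0.37 to −0.11 and that of CFAP210 from −0.76 to −0.13. CFAP97 followed with −0.13, and 0.049 when scaled by the reads in genes.

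CFAP418 and CFAP20 were the CFAP genes with a small p by limma or with no overlap. CFAP418, whose protein is known from photoreceptors, had 56.1, 69.9, 63.6, 81.4 and 35.6 normalized counts in increased dose replicates 3, 19, 27, 51 and 59, against 158.1, 75.0, 90.5 and 151.1 in standard dose replicates 9, 17, 33 and 41. Increased dose replicate 51 alone lay above standard dose replicate 17. The log2 fold change was −0.92 (standard error 0.33, unadjusted p = 0.015 and adjusted p = 0.397 by limma, exact permutation p = 0.0238). CFAP20, which joins the doublet microtubules at their inner junction and is also used by non-motile cilia, had 27.1, 24.7, 34.0, 30.9 and 27.0 in increased dose replicates 3, 19, 27, 51 and 59, against 5.97, 12.8, 19.1 and 22.4 in standard dose replicates 9, 17, 33 and 41. All increased-dose values exceeded all standard-dose values, which held for 1.80% of all genes tested. For CFAP20 the log2 fold change was 1.02 (standard error 0.49, unadjusted p = 0.057 and adjusted p = 0.418 by limma), and its exact permutation p of 0.00794 is the smallest that 5 animals against 4 allow. Without standard dose replicate 9 its log2 fold change was 0.66. CFAP206 and CFAP46, at means of 19.7 and 19.5, were the members nearest below the minimum.

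The SPAG genes, named as sperm associated antigens, hold both axonemal and other proteins. SPAG9, a scaffold for signalling kinases, and SPAG7 were the most counted of all members, and their log2 fold changes were 0.10 and 0.21. SPAG9 averaged 899.1 ± 246.6 at the increased dose (SD, n = 5) and 838.0 ± 195.7 at the standard dose (SD, n = 4). The sign of both turned without standard dose replicates 9 and 41, to −0.058 for SPAG9 and −0.22 for SPAG7. SPAG6 and SPAG17, both of the central pair apparatus, had log2 fold changes of −1.12 and −0.51. SPAG6 had 301.1 normalized counts in standard dose replicate 41 and 14.4 to 56.3 in the other 8 libraries. SPAG8, known as a protein inside the doublets, had 215.7 to 314.8 in the increased-dose and 214.9 to 787.7 in the standard-dose libraries, and its highest library was replicate 9, where most axonemal members were low. Its RefSeq 3′ end lies 2610 bases beyond the end in the authors' annotation.

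Tektins, which run along the doublets as filaments, were hardly counted. None of the 5 passed the minimum, and TEKTIP1, CFAP77 and CFAP99 had no read in any library. The summed count of the 5 was 1.71 to 6.33 in increased-dose libraries, against 1.49 in standard dose replicate 9 and 14.6, 14.8 and 30.2 in replicates 17, 33 and 41. TEKT1 had 0 to 7.83 normalized counts, and its RefSeq 3′ end lies 5 bases from that of the authors' annotation. Over all 77 matched members, the RefSeq 3′ end lay more than 300 bases beyond the authors' end for 9 of 49 tested (18.4%) and 7 of 28 untested members (25.0%), and reads in such stretches would not have been counted. The part of these ends in the low counts was not tested.

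The IFT genes had the median nearest to 0 of the roles, −0.25. Of 14 members 12 were tested, and their log2 fold changes, 10 negative and 2 positive, ran from −0.63 to 0.75. IFT46 had 222.5, 443.6, 249.9, 217.4 and 248.4 normalized counts in increased dose replicates 3, 19, 27, 51 and 59, against 314.8, 349.2, 289.7 and 257.4 in standard dose replicates 9, 17, 33 and 41. Its groups overlapped, with the highest library in the increased-dose group. The log2 fold change was −0.18 (standard error 0.25) and close to 0 when scaled by the reads in genes. IFT88, needed to build primary and motile cilia alike, had 173.2 ± 50.8 (SD, n = 5) against 238.8 ± 74.5 (SD, n = 4) and a log2 fold change of −0.46, which was −0.27 without standard dose replicate 41. IFT20, which also works at the Golgi, and IFT80 had positive values, 0.42 and 0.75. With each library left out in turn, IFT20 ran from 0.21 to 0.63 and IFT80 from 0.30 to 1.28. All 14 IFT genes had a read in every library, as did 70 of the 103 members.

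Axonemal genes spread widely between the animals of the standard-dose group. The 18 dynein arm genes summed to 539.1, 626.1, 371.8, 833.7 and 581.6 normalized counts in increased dose replicates 3, 19, 27, 51 and 59, against 307.3, 1034.9, 694.2 and 1640.8 in standard dose replicates 9, 17, 33 and 41. The standard-dose group thus held both the lowest and the 2 highest sums. Replicate 41 was the highest library for 29 of the 62 tested members (46.8%), against 15.6% of all genes tested, and for 11 of 14 dynein arm genes. Replicate 9 was the lowest for 17 members (27.4%), near its 21.3% of all genes tested. Increased dose replicate 27 was the lowest for 15 members (24.2%), against 7.05% of all genes tested. Replicate 41 exceeded replicate 9 for 50 of 62 members, by a median of 3.70-fold on counts plus 1 for members other than IFT genes and FOXJ1, of 1.5-fold for IFT genes and of 0.898-fold for all genes tested. For 5 of 12 tested IFT genes the highest library was increased dose replicate 19. The median SD of log2 values over the tested members was 0.55 in the increased-dose and 0.89 in the standard-dose group, and over all genes tested 0.38 and 0.60. The median mean count was 53.7 for the members and 114 for all genes tested.

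**Figure D3:**
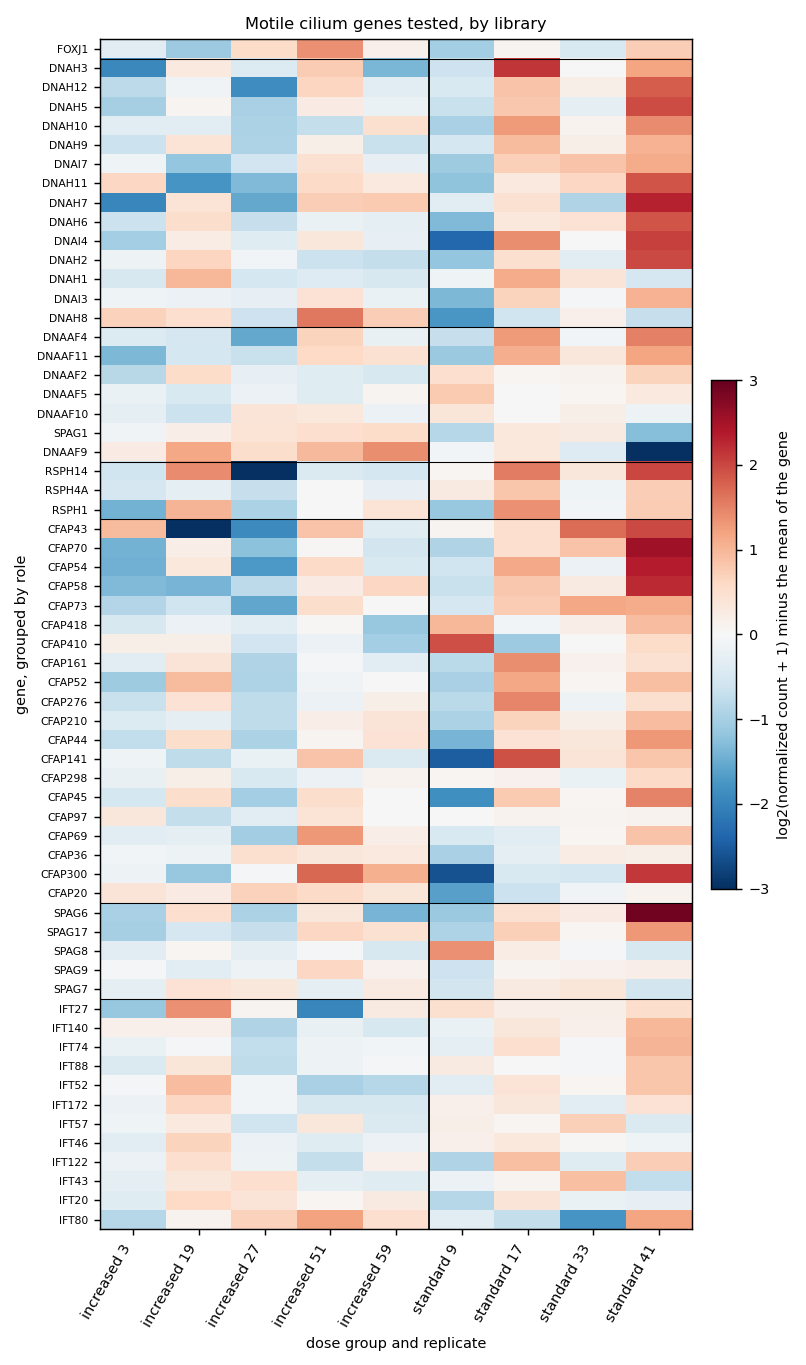
Log2(normalized count + 1) of the 62 tested members minus the mean of each gene, by library, with the 5 increased-dose libraries on the left and the 4 standard-dose libraries on the right. Rows are grouped by role. Standard dose replicate 41 is the highest library for 29 rows (46.8%, against 15.6% of all genes tested). Replicate 9 is the lowest for 17 rows (27.4%, against 21.3%) and increased dose replicate 27 for 15 (24.2%, against 7.05%).

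How far the members differed between the doses depended on single libraries, most on standard dose replicate 9. Without replicate 9 the median log2 fold change of the 62 members was −0.76, and 27 had an unadjusted p under 0.05, 26 of them lower, against 9.30% of all genes. Without replicate 41 the median was −0.26, with 5 such members and 9.98% of all genes. The median was −0.30 without standard dose replicate 17 and −0.32 without increased dose replicate 3. Without standard dose replicates 9 and 41 together it was −0.49, with 7 members and 5.01% of all genes. In each of these fits limma called 0 members after adjustment. Leaving out 1 library moved the log2 fold change by over 1.5 times for 22 of 27 named members, the exceptions being CFAP418, DNAAF2, DNAH8, DNAH9 and RSPH4A. The median was −0.42 with TMM factors and −0.29 when scaled by the reads in genes, a scaling that moved the median of all genes to 0.19. Relative to the median of all genes the members lay at −0.48 in the fit reported and at −0.48 under both of these scalings. Each scaling divides a library by 1 constant, so this difference could hardly change and is not a check of it.

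Most other tested genes of the motile cilium had negative log2 fold changes. Of 77 genes on 4 further lists, 64 were in the table and 37 were tested, 27 below and 10 above 0 with a median log2 fold change of −0.37. The list of transcription factors and regulators of multiciliation had 3 of 4 tested genes above 0 and a median of 0.52, while the 3 lists of axonemal parts had medians of −0.29, −0.35 and −0.57. limma called 0 of the 37, with 2 lower and 1 higher at an unadjusted p under 0.05, where 6.60% and 5.57% of all genes were lower and higher. GAS8, part of the nexin-dynein regulatory complex, had 31.7, 28.1, 23.5, 39.2 and 26.0 normalized counts in increased dose replicates 3, 19, 27, 51 and 59, against 158.1, 68.6, 63.5 and 85.1 in standard dose replicates 9, 17, 33 and 41. All 5 increased-dose libraries were below all 4 standard-dose libraries, with a log2 fold change of −1.55 (standard error 0.35, adjusted p = 0.397 by limma, exact permutation p = 0.00794). In either direction the groups did not overlap for 3.81% of all genes tested, and GAS8 was picked after its values were seen. The list that holds GAS8 had a median of −0.35, and the highest library of GAS8 was standard dose replicate 9. RFX2, an X-box factor, had 41.0 ± 18.8 (SD, n = 5) against 19.3 ± 8.13 (SD, n = 4), a log2 fold change of 1.04 (standard error 0.46, adjusted p = 0.402 by limma). MYB, the most counted of the 4 tested regulators, went the other way. MYB had 74.7 ± 26.4 (SD, n = 5) against 158.9 ± 109.6 (SD, n = 4), and its highest library was standard dose replicate 41. The log2 fold change of MYB was −0.89 (standard error 0.44, adjusted p = 0.418 by limma). RFX3, at a mean of 3.78, was not tested.

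Secretory cell markers of the airway shared their 2 highest and 3 lowest libraries with the dynein arm sums. The summed counts of 8 secretory cell markers, led by the club cell gene SCGB1A1, were 902, 6495, 1003, 3192 and 3046 in increased dose replicates 3, 19, 27, 51 and 59, against 1129, 8224, 2061 and 8984 in standard dose replicates 9, 17, 33 and 41. Standard dose replicates 17 and 41 were again the highest libraries, followed here by increased dose replicate 19, and increased dose replicates 3 and 27 and standard dose replicate 9 the lowest. The 4 basal cell markers in the table summed to 5.22 to 22.2 in increased-dose libraries and to 23.9, 85.9, 25.2 and 127.6 in standard dose replicates 9, 17, 33 and 41. Replicate 9 was above every increased-dose library here, but by little, as 1 read in it was worth 1.49 normalized counts. The marker KRT5 had 14.9 in replicate 9, within the increased-dose range of 5.22 to 15.5. All 6 tested secretory markers had negative log2 fold changes, with a median of −1.01, and limma called 0 of them, with 1 at an unadjusted p under 0.05. The markers of alveolar cells went the other way, with medians of 0.69 for 8 type 2 and 1.00 for 6 type 1 pneumocyte markers, and none was called, with 1 of the 8 and 3 of the 6 higher at an unadjusted p under 0.05. The one basal marker tested, KRT5, had a log2 fold change of −1.79 and an unadjusted p of 0.025 by limma. All 11 hepatocyte markers were lower at an unadjusted p under 0.05, with a median log2 fold change of −1.38, the direction of most cilium genes, and limma called none. The study's own DESeq2 comparison reported ITIH2 and FGG among its downregulated genes. The hepatocyte sum was highest in standard dose replicate 9 (369315), which had the lowest dynein arm sum (307.3). Skeletal muscle markers summed to 61881 to 147853 in increased-dose libraries and to 36597 to 257614 in standard-dose libraries, with replicate 41 the highest. The part of other cells in the values of the cilium genes was not tested.

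**Figure D4:**
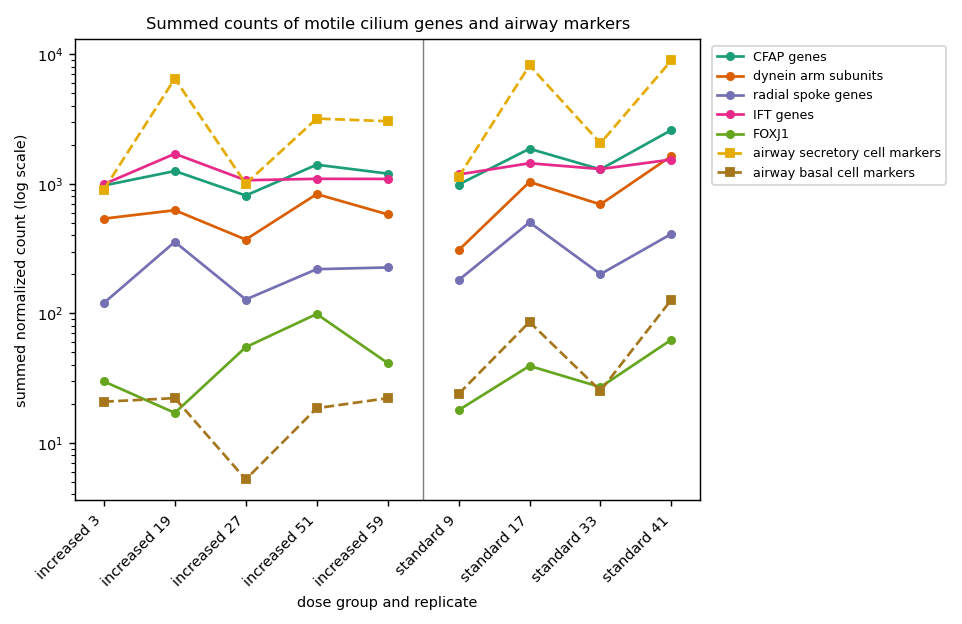
Summed normalized counts (log scale) of motile cilium genes by role, and of airway secretory and basal cell markers (dashed), in the 5 increased-dose libraries on the left and the 4 standard-dose libraries on the right, where lines only join values of 1 group. Dynein arm sums run from 371.8 to 833.7 at the increased dose and from 307.3 to 1640.8 at the standard dose, and the peaks of the secretory markers in standard dose replicates 17 and 41 are those of the axonemal genes.

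Some members share their place with another gene. Of the 62 tested members, 17 overlap another annotated protein-coding gene or long non-coding RNA, among them CFAP43, CFAP54, CFAP97, DNAH11, IFT20, RSPH14 and SPAG9 of the genes described above. Whether the counting used the strand is not stated, so it is not known how reads in a shared stretch were counted. IFT20 and TMEM97 lie on opposite strands and share 492 bases, with means of 156.7 and 1010 normalized counts.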

How the data were processed

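RNA had been taken from 10 pigs, and the authors rejected 1 library. The labels and the study's methods give females, while its discussion speaks of males for these libraries, and the labels were followed. The authors checked reads with FastQC, trimmed them with FLEXBAR, mapped them to Sscrofa11.1 with TopHat, counted them per gene with HTSeq-count and compared doses with DESeq2. The signal deposited for each library is a normalized count, a read number over a DESeq2 size factor, with the authors' mean beside it, and 100.0% were whole multiples (within 0.01) of 1 read. The deposited log2 fold changes, scores (Wald statistics) and p-values of the authors were not used. The column of replicate 33 is named 31, as in that sample's description.

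Genes with a mean over 20 were tested with limma 3.58.1 (trend, pseudocount 1, two-sided, Benjamini-Hochberg) and by exact permutation over all splits. Alternatives were pseudocounts of 0.5 and 5, other filters, robust variances, array weights, TMM, quantile and total-read scaling, edgeR 4.0.16, DESeq2 1.42.0, and left-out libraries. The code was tested on simulated data. The genes named were FOXJ1, the 3 most counted per role and the 4 largest changes each way. Those at an unadjusted p under 0.05 or without overlap, and those nearest the minimum, were named too. DNAI1, DNAH5, DNAH11, SPAG6, SPAG17, RSPH9 and the tektins were added after their values were seen, as were GAS8, RFX2, RFX3 and MYB. A further gene of the lists is not reported here. Members and lists were chosen with earlier results of these data known. Genes without a name were named from the Ensembl table (223 genes). Python 3.11.15 and R 4.3.3 were used.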

Additional observations from a re-analysis of the deposited data

Results flagged for a closer look

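Among 54 groups of libraries of 27 named genes, 4 had a library far from the others by Dixon's test on log2 values, where chance gives about 1 in 20. DNAI3 was at 197.9 normalized counts in increased dose replicate 51, against 121.9 to 133.0 in the other 4 increased-dose libraries. IFT46 was at 443.6 in increased dose replicate 19 and at 217.4 to 249.9 in the other 4. SPAG9 was at 549.0 in standard dose replicate 9 and at 897.7 to 980.5 in the other 3 standard-dose libraries. DNAAF9 was at 0 in standard dose replicate 41 and at 13.0 to 21.9 in the other 3.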

How the results depend on the processing

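The count of 0 motile cilium genes called held under every alternative run. The count over all genes was 0 except 2 with array weights and 195 with DESeq2. At an unadjusted p under 0.05 there were 4 members, and 7 without a filter on low values (8.99% of all genes). There were 26 with array weights (11.9%), 7 with edgeR (15.0%), 11 with DESeq2 (14.0%) and 7 without standard dose replicates 9 and 41 (5.01%). When each library was left out there were 3 to 27 members, and 8.07% to 19.1% of all genes. The 27 members were without standard dose replicate 9 (9.30% of all genes), and the 19.1% was without standard dose replicate 33 (7 members). The median log2 fold change of the members was negative throughout, from −0.76 to −0.26 over the left-out libraries, where it was −0.88 to −0.31 for members other than IFT genes and FOXJ1 and −0.41 to −0.20 for IFT genes. The sign turned for CFAP97 (0.049), DNAI3 (0.030) and IFT46 (0.0010) when scaled by reads in genes, for SPAG7 with array weights (−0.11), and for SPAG7 (−0.22) and SPAG9 (−0.058) without standard dose replicates 9 and 41. With single libraries left out the ranges crossed 0 for CFAP97 (−0.25 to 0.038), SPAG9 (−0.093 to 0.19), DNAI3 (−0.62 to 0.17) and FOXJ1 (−0.010 to 0.61). The causes were not tested. No paired analysis was possible because the groups share no replicate number. Low counts limit the precision, and 41 of 103 members fell under the minimum.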
